A study of Homo sapiens with 12 samples.

Results

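The set described here held 56 genes of the cellular defence against peroxides and of the NRF2 pathway, listed by name among the 55765 gene symbols counted in RNA from SH-SY5Y cells, a human neuroblastoma line whose cells take on a neuron-like form when given all-trans retinoic acid (ATRA). The genes were sorted by their known function into 9 roles, which are peroxiredoxins, other peroxide-removing enzymes, superoxide dismutases, thioredoxins and glutaredoxins, glutathione supply, glutathione transferases and export, quinone, heme and carbonyl reduction, NADPH supply, and regulators. All 56 had at least 1 count in the 12 libraries, and 54 passed the filter on low counts in each comparison. GPX8, a peroxidase of the endoplasmic reticulum, and SOD3, the secreted superoxide dismutase, did not pass it.

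All 12 libraries came from SH-SY5Y cells differentiated with 10 μM ATRA for 7 days, and the ATRA was given to controls and treated cells alike. In the co-treatment experiment, 3 libraries came from cells that also received H2O2 throughout differentiation and 3 from cells that received ATRA only. In the pre-treatment experiment, 3 libraries came from cells exposed to H2O2 for 72 h before ATRA was added, and 3 from controls without H2O2. The H2O2 dose is 10 mM in the description deposited with the data and 10 μM in the study's methods, and the labels name the parental line SK-N-SH as the source. SH-SY5Y is a single subline of a tumour and no undifferentiated cells were analysed here, so all values are levels after 7 days of ATRA. Nothing states that replicates were separate differentiations, so p-values measure the spread between these libraries.

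As background, peroxiredoxins, glutathione peroxidases and catalase break down hydrogen peroxide. The thioredoxin and glutathione systems return peroxiredoxins and glutathione peroxidases to their reduced form with electrons from NADPH. NRF2, encoded by NFE2L2, is held in the cytoplasm and marked for degradation by KEAP1. When cysteines of KEAP1 are oxidised, NRF2 accumulates in the nucleus and, with small MAF proteins, binds antioxidant response elements near genes such as NQO1, HMOX1, TXNRD1, GCLM, SRXN1 and SLC7A11, and BACH1 competes for the same elements.

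The core of that element was searched as the letters TGACNNNGC, on both strands, in RefSeq promoter windows (GRCh38.p14) that run from 250 bases before to 50 bases after a start site. A window was given for 46 of the 56 genes, and 9 of the 46 (19.6%) held the letters, against 13.3% of all 35116 windows. The 9 genes were TXNRD1, GCLM, GSTP1, GSTO1, MGST1, PGD, ME1, IDH1 and KEAP1. The 250 bases before the start are shown for 3 of them, from 3 of the roles, to give the context of the element, with the core in capitals. On hg19 they lie at chr12:104680560-104680809 on the plus strand (TXNRD1, the cytosolic thioredoxin reductase), chr1:94374987-94375236 on the minus strand (GCLM, the modifier subunit of the enzyme that starts glutathione synthesis) and chr11:67351033-67351282 on the plus strand (GSTP1, the pi-class glutathione transferase). The first base of the core lies at -102, -34 and -66 relative to the start. In TXNRD1 and GCLM the core reads on the opposite strand.
TXNRD1: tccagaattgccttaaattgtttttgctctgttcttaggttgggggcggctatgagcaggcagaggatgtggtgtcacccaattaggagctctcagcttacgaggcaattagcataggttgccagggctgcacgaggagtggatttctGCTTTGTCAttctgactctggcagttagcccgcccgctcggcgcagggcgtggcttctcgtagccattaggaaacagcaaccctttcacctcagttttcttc
GCLM: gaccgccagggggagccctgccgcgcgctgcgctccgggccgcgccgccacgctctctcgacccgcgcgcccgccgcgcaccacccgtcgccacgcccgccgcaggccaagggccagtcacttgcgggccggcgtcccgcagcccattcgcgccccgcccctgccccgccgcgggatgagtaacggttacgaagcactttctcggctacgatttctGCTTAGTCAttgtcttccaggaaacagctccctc
GSTP1: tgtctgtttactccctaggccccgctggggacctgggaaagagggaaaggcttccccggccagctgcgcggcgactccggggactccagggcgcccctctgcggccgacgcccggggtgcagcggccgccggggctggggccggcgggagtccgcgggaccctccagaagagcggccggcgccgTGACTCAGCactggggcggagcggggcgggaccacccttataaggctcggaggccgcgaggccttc
The windows of NQO1, OSGIN1, SRXN1 and GCLC did not hold these letters, which says nothing of elements elsewhere. A match is a description of the letters and not a measured site.

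In control cells of the co-treatment experiment, expression per kilobase of exon spanned a wide range, from PRDX5 at the top to SOD3, which had no counts in these libraries. The length joins all annotated exons of a gene and can exceed that of the transcripts present, which lowers the value per kb. PRDX5, a peroxiredoxin of mitochondria and peroxisomes, had 280.5 CPM per kb (CPM is the count scaled to a library of standard size) and GSTP1 204.3 CPM per kb. GPX4, which reduces lipid peroxides, had 97.7, SOD1 92.1, GPX1 91.7 and PRDX2 88.9 CPM per kb. The levels of GPX4, SOD1, GPX1 and PRDX2 lay within the spread of each other between the 3 control libraries. Among the known NRF2 targets, TXNRD1 had 37.6 CPM per kb and NQO1 13.0, whereas GCLC had 5.06, GCLM 3.33, HMOX1 0.711, SRXN1 0.191, SLC7A11 0.136 and OSGIN1 0.0511 CPM per kb. The regulators were present, with 46.6 CPM per kb for NFE2L1, 29.8 for KEAP1, 19.0 for SQSTM1, 10.4 for BACH1 and 3.97 for NFE2L2. The inducible genes HMOX1, SRXN1, SLC7A11 and OSGIN1 were thus close to the bottom of the 56.

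**Figure D1:**
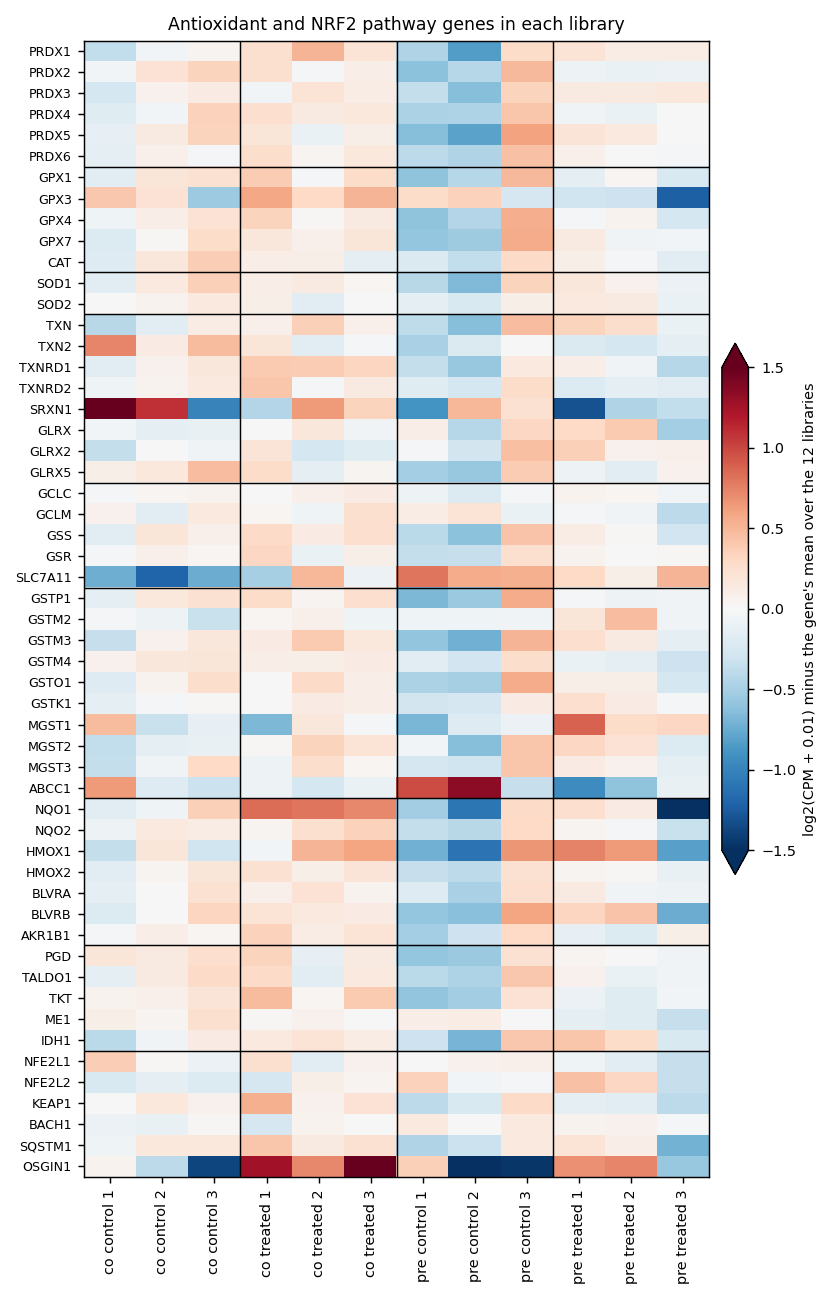
Each row is 1 of the 54 tested genes, ordered by role with lines between roles, and each column is 1 of the 12 libraries. Colour gives the log2 CPM minus the mean of that gene over the 12 libraries. Most rows are low in pre-treatment control replicates 1 and 2 and high in control replicate 3.

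Between 27576276 and 98287391 reads were counted on genes per library. Markers of noradrenergic neuroblasts (such as HAND2 and ISL1) and neurons (such as STMN2 and MAP2) were expressed in all 12 libraries, and the summed level of 3 immune markers was at most 0.725 CPM. Of the 3 pre-treatment controls, replicate 3 stood apart from replicates 1 and 2. Control replicates 1 and 2 had 0.800 and 0.830 reads outside genes per read on a gene and 1.55% and 2.83% of counts on small non-coding RNA genes, whereas control replicate 3 had 0.200 and 17.4%. The treated replicates lay between them at 0.343 to 0.462 and 13.1% to 14.9%, and the co-treatment libraries at 0.263 to 0.429 and 5.01% to 12.9%. The study's clustering shows only controls 1 and 2, so the pre-treatment comparison was made with all 6 libraries and with the 5 that leave out control replicate 3. In bulk RNA, fewer cells of a type and less RNA per cell cannot be told apart.

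After co-treatment, NQO1, the quinone reductase often used as a readout of NRF2, had the smallest p of the set and missed the threshold narrowly. It had 32.8, 35.4 and 47.5 CPM in the controls and 66.0, 64.5 and 61.1 CPM in the treated libraries. The groups did not overlap, and the treated libraries lay closer together than the controls. The log2 fold change (log2FC) was 0.73 with a standard error (SE) of 0.15, and the adjusted p over all genes was 0.0511 in edgeR's quasi-likelihood test. DESeq2 gave NQO1 an adjusted p of 0.00161, limma-voom 0.0362 and edgeR's exact test 0.00183, so NQO1 was called by these 3 tests and not by the main one. The main test called it without control replicate 1 (adjusted p = 0.0487) and without control replicate 3 (adjusted p = 0.0121). NQO1 lies on chromosome 16 at 69740899 to 69760571 (hg19, minus strand), and exons of 1 unnamed gene on the opposite strand overlap its own.

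None of the 54 genes passed an adjusted p of 0.05 in the co-treatment comparison, in which 132 of all 22089 genes tested (0.598%) passed. The exact test called 2 of the 54, DESeq2 1 and limma-voom 1. Of all 22089 genes these tests called 333, 342 and 138, so the exact test and DESeq2 called more genes throughout than the main test. At an unadjusted p under 0.05 there were 7, of which 6 were higher in treated cells, that is 13.0% of the 54 beside 8.15% of all genes tested. In 7 of the 54 all treated libraries lay above all controls, where this held for 6.58% of all genes, and in 0 all lay below, where this held for 7.37%. The median log2FC of the 54 was 0.115, and that of all genes tested was -0.00095, with 39 of the 54 above 0.

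Among regulators, OSGIN1, a target of NRF2 that restrains growth, followed NQO1. It had 0.408, 0.299 and 0.146 CPM in the controls and 0.960, 0.659 and 1.32 CPM in the treated libraries. Treated and control libraries did not overlap, at a level under 2 CPM throughout. The log2FC was 1.75 (SE 0.48, adjusted p = 0.203 in edgeR's quasi-likelihood test). NFE2L2 itself had 58.1, 61.5 and 58.9 CPM in the controls against 57.2, 72.0 and 69.9 CPM, a log2FC of 0.16 (SE 0.13). KEAP1 had 100.6, 112.7 and 105.9 CPM against 145.9, 105.9 and 117.9 CPM, a log2FC of 0.21 (SE 0.14). Both overlapped between groups. SQSTM1, which can displace NRF2 from KEAP1, had a log2FC of 0.18, and BACH1 and NFE2L1 had 0.00 and -0.05.

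In the glutathione supply, SLC7A11, the cystine importer that feeds glutathione synthesis, had 1.45, 1.05 and 1.43 CPM in the controls and 1.71, 3.41 and 2.28 CPM in the treated libraries. All 3 treated libraries were higher than all controls, and their spread was larger. The log2FC was 0.93 (SE 0.31, adjusted p = 0.368 in edgeR's quasi-likelihood test). The genes of both subunits of glutamate-cysteine ligase overlapped between groups. GCLC had 42.5, 43.8 and 44.4 CPM against 42.7, 45.4 and 46.6 CPM, with a log2FC of 0.05 (SE 0.11), and GCLM had 18.6, 15.9 and 19.7 CPM against 18.2, 17.1 and 21.2 CPM, with a log2FC of 0.06 (SE 0.15). For GSS and GSR, which make and reduce glutathione, the log2FC was 0.19 and 0.08.

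In the thioredoxin system, TXNRD1 had 219.8, 259.1 and 278.7 CPM in the controls and 323.7, 321.5 and 309.9 CPM in the treated libraries. The groups did not overlap, and the treated libraries varied little. Its log2FC was 0.34 (SE 0.13, adjusted p = 0.454 in edgeR's quasi-likelihood test). TXN2, the mitochondrial thioredoxin, was the only 1 of the 7 genes with an unadjusted p under 0.05 that was lower in treated cells, with 63.1, 41.6 and 52.8 CPM against 43.1, 34.1 and 37.3 CPM and a log2FC of -0.46 (SE 0.16). SRXN1, which restores overoxidised peroxiredoxins, had 0.795, 0.533 and 0.117 CPM against 0.178, 0.386 and 0.311 CPM. Its controls covered the whole range of the treated libraries, and its log2FC of -0.70 had an SE of 0.63. TXN had a log2FC of 0.32, GLRX 0.15 and GLRX5 -0.18.

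Of the 6 peroxiredoxins, PRDX1, the abundant cytosolic form, had the smallest p, with 107.0, 133.8 and 141.9 CPM in the controls and 162.8, 197.1 and 158.9 CPM in the treated libraries. All treated libraries lay above all controls, with a log2FC of 0.44 (SE 0.14, adjusted p = 0.341 in edgeR's quasi-likelihood test). The other 5 ranged in log2FC from -0.07 (PRDX2) to 0.18 (PRDX6). Among other peroxide-removing enzymes the range was -0.11 (CAT, catalase) to 0.39 (GPX3, the secreted glutathione peroxidase), and SOD1 and SOD2 had -0.04 and -0.08.

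In quinone, heme and carbonyl reduction all 7 genes had a log2FC above 0, and NQO1 was the one with an unadjusted p under 0.05. HMOX1, the inducible heme oxygenase, had 1.41, 2.05 and 1.46 CPM in the controls and 1.74, 2.56 and 2.72 CPM in the treated libraries. The groups overlapped by 1 library, and the log2FC was 0.53 (SE 0.28, adjusted p = 0.709 in edgeR's quasi-likelihood test). AKR1B1, aldose reductase, did not overlap between groups, with a log2FC of 0.19, whereas HMOX2, NQO2, BLVRA and BLVRB had 0.08 to 0.15. Among transferases and export, MGST2, a microsomal transferase, had 6.10, 7.17 and 7.25 CPM against 7.93, 9.87 and 9.08 CPM, a log2FC of 0.40 (SE 0.17, adjusted p = 0.563 in edgeR's quasi-likelihood test). The remaining 9 of this role lay between -0.25 (ABCC1, an exporter of glutathione conjugates) and 0.25 (GSTM3). NADPH supply had a median log2FC of -0.00438 over 5 genes, from -0.09 (ME1, malic enzyme) to 0.26 (IDH1). Of 6 neuroblast markers 3 were lower in co-treated cells at an unadjusted p under 0.05, HAND2 and DBH among them (log2FC -0.58 and -0.46), and 0 passed the adjusted threshold. Of 7 tested markers of Schwann or mesenchymal cells VIM, an intermediate filament gene, was called higher (log2FC 1.16, adjusted p = 0.0272 in edgeR's quasi-likelihood test), 2 were lower at an unadjusted p under 0.05 (TWIST1 -0.48 and COL1A1 -1.65), and the median of the list was 0.0491. Their part in the values of the antioxidant genes was not tested.

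**Figure D2:**
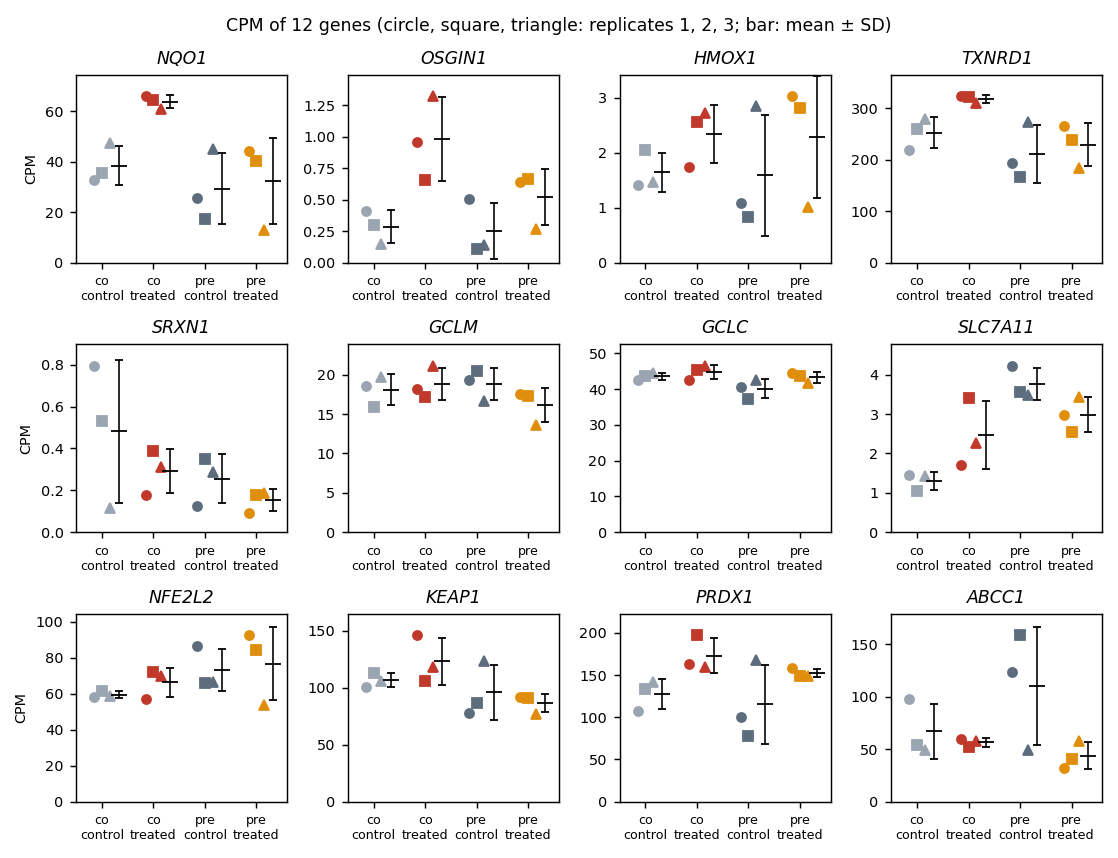
CPM of 12 genes in each library, with 3 libraries per group (circle, square and triangle for replicates 1, 2 and 3) and the mean ± SD beside them. For NQO1, OSGIN1, TXNRD1, SLC7A11 and PRDX1 all co-treated libraries lie above all co-treatment controls, and for SLC7A11 all pre-treated libraries lie below all pre-treatment controls.

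In the pre-treatment experiment with all 6 libraries, none of the 54 genes passed the threshold, where 6 of 24743 genes tested (0.0242%) did. The exact test and limma-voom also called 0, and DESeq2 called 1, ABCC1 with an adjusted p of 0.0419. Of all 24743 genes the exact test called 271, limma-voom 0 and DESeq2 705. At an unadjusted p under 0.05 there were 2 of the 54 (3.70%), beside 11.2% of all genes. In 2 of the 54, GSTM2 and MGST1, all treated libraries lay above all controls, where this held for 7.97% of all genes. In 4, GPX3, SLC7A11, ME1 and NFE2L1, all lay below, where this held for 8.47%. The median log2FC was 0.110 for the 54 and -0.00662 for all genes tested.

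ABCC1 had the smallest p of the set over the 6 libraries. It had 123.3, 158.5 and 48.9 CPM in control replicates 1, 2 and 3, and 32.3, 40.9 and 57.9 CPM in the treated replicates. Controls 1 and 2 were far above every other library of the experiment, and control replicate 3 lay within the treated range. The log2FC was -1.30 (SE 0.40, adjusted p = 0.320 in edgeR's quasi-likelihood test). MGST1, a microsomal glutathione transferase at a low level, had 0.672, 0.942 and 1.02 CPM in the controls and 2.01, 1.31 and 1.34 CPM in the treated libraries, a log2FC of 0.85 (SE 0.36, adjusted p = 0.429 in edgeR's quasi-likelihood test). GPX3 had 14.2, 14.9 and 9.83 CPM against 9.54, 9.45 and 4.998 CPM, a log2FC of -0.66 (SE 0.29, adjusted p = 0.446 in edgeR's quasi-likelihood test). For MGST1 and GPX3 the nearest control and treated libraries were close to each other.

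The NRF2 targets NQO1, HMOX1 and TXNRD1 differed more between replicates of one group than between groups. NQO1 had 25.8, 17.4 and 45.0 CPM in the pre-treatment controls and 44.1, 40.2 and 12.8 CPM in the treated libraries, a log2FC of 0.15 (SE 0.49). HMOX1 had 1.09, 0.833 and 2.85 CPM against 3.03, 2.81 and 1.02 CPM, a log2FC of 0.53 (SE 0.58). TXNRD1 had 193.5, 166.4 and 273.5 CPM against 265.0, 239.4 and 184.2 CPM, a log2FC of 0.14 (SE 0.25). In these 3 genes control replicate 3 lay with treated replicates 1 and 2, and treated replicate 3 lay with controls 1 and 2. OSGIN1 had 0.508, 0.110 and 0.137 CPM against 0.643, 0.661 and 0.263 CPM. SLC7A11 had 4.23, 3.55 and 3.49 CPM in the controls and 2.96, 2.56 and 3.43 CPM in the treated libraries, a log2FC of -0.30 (SE 0.25). All its treated libraries were below all controls, the closest pair differing by less than the spread within either group.

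GCLC had 40.6, 37.2 and 42.5 CPM in the pre-treatment controls and 44.6, 43.7 and 41.6 CPM in the treated libraries, and GCLM had 19.3, 20.6 and 16.6 CPM against 17.5, 17.3 and 13.7 CPM. SRXN1 stayed under 0.36 CPM, with 0.127, 0.351 and 0.290 CPM against 0.0933, 0.176 and 0.188 CPM. NFE2L2 had 86.5, 66.1 and 66.6 CPM against 92.5, 84.1 and 53.6 CPM, and KEAP1 had 77.3, 86.4 and 123.5 CPM against 91.5, 91.0 and 77.0 CPM. All 5 overlapped between groups.

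**Figure D3:**
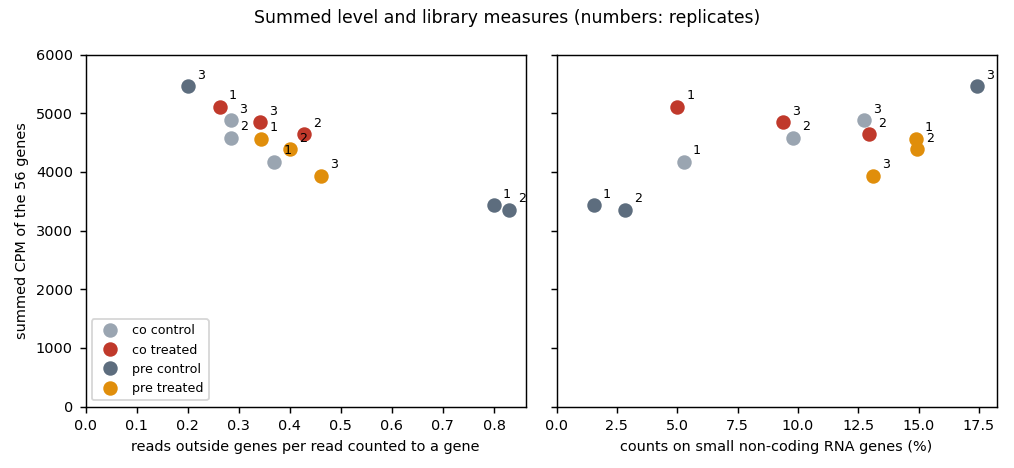
Summed CPM of the 56 genes in each library against the reads outside genes per counted read (left) and against the percentage of counts on small non-coding RNA genes (right), with replicate numbers beside the points. Pre-treatment control replicates 1 and 2 have the most reads outside genes and the lowest sums, and control replicate 3 has the fewest and the highest sum.

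The spread among the pre-treatment controls ran through most of the set. The 56 genes summed to 3430 and 3358 CPM in control replicates 1 and 2, to 5467 CPM in control replicate 3, to 4569, 4384 and 3937 CPM in the treated replicates and to between 4175 and 5114 CPM in the co-treatment libraries. Control replicate 3 lay above all 3 treated libraries in 41 of the 54 genes (75.9%), beside 31.8% of all 24743 genes tested. Controls 1 and 2 both lay below all 3 treated libraries in 33 (61.1%), beside 26.9% of all genes. Set against the 3 co-treatment controls on the same scale, controls 1 and 2 both lay below in 37 of the 54 (68.5%, beside 28.5% of 24407 genes), and control replicate 3 lay above in 38 (70.4%, beside 27.1%). The pre-treatment controls thus lay on both sides of the treated libraries. GSTP1 shows the pattern, with 211.2, 230.1 and 498.4 CPM in the pre-treatment controls, 333.2, 320.9 and 326.5 CPM in the treated libraries and 307.1, 378.1 and 395.8 CPM in the co-treatment controls.

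Without control replicate 3, 24 of the 54 genes passed the threshold, and 23 of them were higher in treated cells. That is 42.6% of the 54, beside 13.2% of 26350 genes tested and 19.5% of the protein-coding genes among them. ABCC1 alone was lower (1.85% of the 54), where 12.8% of all genes were. In 33 of the 54 all 3 treated libraries lay above controls 1 and 2, where this held for 25.7% of all genes, and in 6 all lay below, where this held for 31.5%. The median log2FC was 0.452 for the 54, 0.0114 for all genes tested and 0.153 for protein-coding genes. With scaling and test limited to protein-coding genes, an alternative chosen after seeing the data, 15 were higher and 2 lower. Of all 13881 genes tested there 12% were higher. The median was 0.317 for the members and 0.0193 for all genes. In 21 of the 23 genes called higher, the control replicate that is left out lay above all 3 treated libraries. The exceptions were GSTK1 and IDH1, in which it lay within them. The log2FC of the 23 ran from 0.423 to 0.902 over the 5 libraries (median 0.533) and from 0.00689 to 0.423 over all 6 (median 0.148). The count of 24 was 13 with library size as the only scaling, 9 of them higher, where 5.25% of all genes were. With the replicate block it was 43, 41 of them higher, where 22.3% of all genes were. Leaving out treated replicate 1, 2 or 3 as well gave 9, 13 or 35, with no share over all genes given here. With control replicate 1 or 2 left out as well, a single control remained and fewer genes passed.

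All 6 peroxiredoxins were among the 23. PRDX5 had the smallest p, with 141.2 and 126.6 CPM in controls 1 and 2, 334.1 CPM in control replicate 3, and 251.5, 243.4 and 219.5 CPM in the treated libraries. Its log2FC over the 5 libraries was 0.90 (SE 0.12, adjusted p = 0.00259 in edgeR's quasi-likelihood test), and over all 6 it was 0.26 (SE 0.37). PRDX1 had 100.7 and 77.5 CPM in controls 1 and 2, 167.3 CPM in control replicate 3, and 158.5, 149.3 and 149.3 CPM in the treated libraries. It had a log2FC of 0.85 (SE 0.14, adjusted p = 0.00479 in edgeR's quasi-likelihood test), and 0.42 over all 6. PRDX3, the mitochondrial form, had 88.9 and 73.2 CPM, then 143.4 CPM, and 125.2, 125.2 and 127.3 CPM, a log2FC of 0.71. PRDX6, which also acts on phospholipid peroxides, had 139.7 and 134.9 CPM, then 248.6 CPM, and 193.9, 182.8 and 180.2 CPM, a log2FC of 0.51. For each of these 4 the treated libraries formed a tight group between the 2 lower controls and the third. PRDX2 and PRDX4 had a log2FC of 0.50 each.

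Of the other peroxide-removing enzymes, GPX7, GPX4 and GPX1 were called, at a log2FC of 0.65, 0.52 and 0.48 (0.12, 0.02 and 0.01 over all 6 libraries). GPX3 went the other way, with all treated libraries below controls 1 and 2 and a log2FC of -0.79 (SE 0.27, adjusted p = 0.0612 in edgeR's quasi-likelihood test), and it was called lower by the exact test (adjusted p = 0.0349) and DESeq2 (adjusted p = 0.0205). GPX7, an endoplasmic reticulum peroxidase, had 24.3 and 25.1 CPM in controls 1 and 2, 53.6 CPM in control replicate 3, and 39.8, 35.1 and 35.5 CPM in the treated libraries. Superoxide dismutase SOD1 had 124.3 and 105.1 CPM, then 209.8 CPM, and 186.9, 173.9 and 155.9 CPM, a log2FC of 0.66 (adjusted p = 0.01003 in edgeR's quasi-likelihood test), and 0.25 over all 6. CAT and SOD2 had a log2FC of 0.33 and 0.32 and did not pass. TXN, cytosolic thioredoxin, had 48.8 and 41.1 CPM, then 87.9 CPM, and 80.5, 76.5 and 59.4 CPM, a log2FC of 0.75. GLRX5, which serves iron-sulfur cluster assembly, was the other called gene of its role, at 0.55.

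In NADPH supply 4 of 5 genes were called. PGD, which makes NADPH in the pentose phosphate pathway, had 129.8 and 132.0 CPM in controls 1 and 2, 227.5 CPM in control replicate 3, and 199.5, 192.7 and 186.3 CPM in the treated libraries, a log2FC of 0.63 (SE 0.11, adjusted p = 0.00554 in edgeR's quasi-likelihood test). TKT, transketolase of the same pathway, had 84.7 and 89.0 CPM, then 147.5 CPM, and 119.7, 111.8 and 123.3 CPM, a log2FC of 0.52. IDH1 and TALDO1 had 0.74 and 0.48. ME1, another source of NADPH and a holder of the element core in its promoter window, was not called and had a log2FC of -0.26.

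Among transferases, GSTP1 had a log2FC of 0.64 (0.08 over all 6 libraries) and GSTM3, a mu-class transferase, 0.82, with 31.6 and 29.0 CPM in controls 1 and 2, 68.3 CPM in control replicate 3, and 57.1, 52.6 and 43.0 CPM in the treated libraries for GSTM3. GSTO1 and GSTK1 had 0.53 and 0.46. ABCC1 was lower, with a log2FC of -1.62 (SE 0.22, adjusted p = 0.00279 in edgeR's quasi-likelihood test), and its value in control replicate 3, 48.9 CPM, fell among the treated libraries as in the comparison of all 6. In glutathione supply GSS (0.53) and GSR (0.45) were called, and GCLC, GCLM and SLC7A11 were not, at 0.22, -0.23 and -0.31. Only HMOX2, the constitutive heme oxygenase, was called in its role, at 0.42, while HMOX1 had 1.31 (SE 0.47, adjusted p = 0.0717) and NQO1 0.65 (SE 0.45, adjusted p = 0.311). HMOX1 was called over the same libraries by edgeR's exact test (adjusted p = 0.038) and DESeq2 (adjusted p = 0.0272). With treated replicate 3 left out as well, edgeR's quasi-likelihood test called NQO1 at 1.00 (adjusted p = 0.00778), HMOX1 at 1.63 (adjusted p = 0.00523) and TXNRD1 at 0.52 (adjusted p = 0.0146). In these 3 genes control replicate 3 and treated replicate 3 were the libraries that lay with the opposite group. Leaving out both set the separation of the others in advance, so no conclusion is drawn from these 3 calls. None of the 6 regulators was called in edgeR's quasi-likelihood test, where they ranged from -0.15 (NFE2L1) to 0.80 (OSGIN1), and none of the 6 had an unadjusted p under 0.05. Without treated replicate 3 that test called SQSTM1 at 0.57 (adjusted p = 0.00646), and with library size as the only scaling NFE2L1 at -0.37 (adjusted p = 0.0494). With the replicate block it called SQSTM1 at 0.60 (adjusted p = 0.00017) and NFE2L2 at 0.29 (adjusted p = 0.0226). In the block fit treated replicate 3 is alone in its block and adds nothing to the contrast, as when it is left out. SQSTM1 had 149.8 CPM in control replicate 3 and 82.6 CPM in treated replicate 3, so its calls in these fits also rest on leaving out both. TXNRD1 had 0.42 (SE 0.17, adjusted p = 0.0952), SRXN1 -0.57 (SE 0.69), NFE2L2 0.08 (SE 0.23) and KEAP1 0.15 (SE 0.12). Of the 9 genes with the element core in their window, the median log2FC was 0.533, and of the 35 tested genes whose window lacks it 0.407. After co-treatment these medians were 0.0867 and 0.119.

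**Figure D4:**
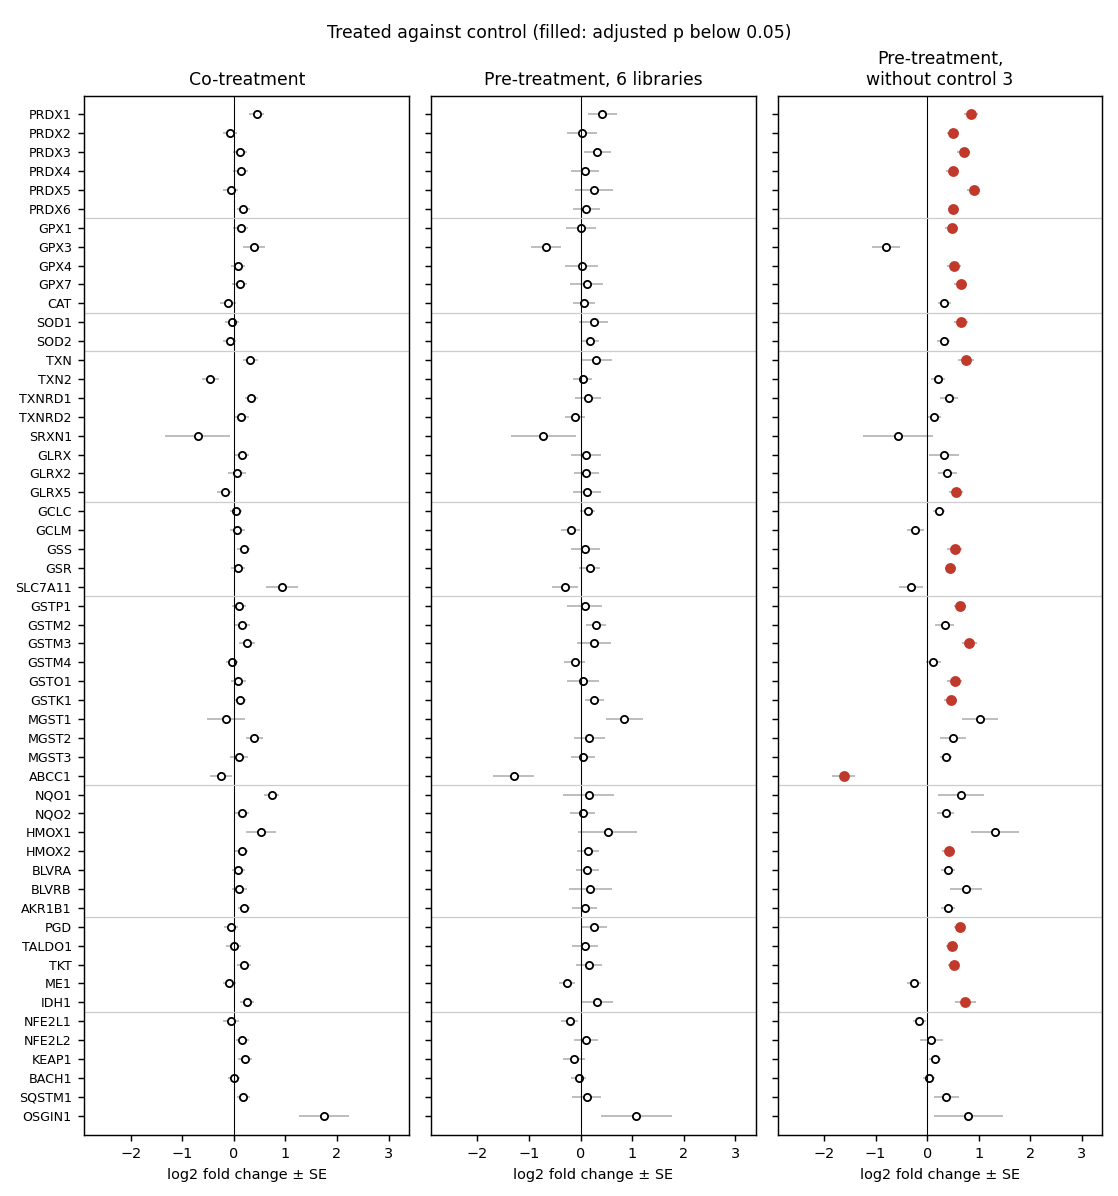
Log2FC of treated against control cells with its SE for the 54 tested genes, ordered by role, after co-treatment (left), after pre-treatment with all 6 libraries (middle) and without control replicate 3 (right). Filled points passed an adjusted p of 0.05 in edgeR's quasi-likelihood test, which happened only in the right panel, for 23 genes above 0 and ABCC1 below 0.

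Gene length moved with the 5-library values. Over protein-coding genes the median log2FC was 0.293 for genes spanning under 10 kb on hg19, 0.231 from 10 to 30 kb, 0.126 from 30 to 100 kb and -0.069 over 100 kb. The members followed the same order at a higher level, with 0.521 (11 genes), 0.507 (19), 0.369 (17) and 0.0795 (7). ABCC1 spans 194 kb and PRDX5 3.69 kb. Over all 6 libraries the medians of the members were 0.0295, 0.110, 0.135 and 0.101 for the same classes. Reads outside genes and small RNA differed between controls 1 and 2 and every treated library, so in the 5 libraries they cannot be told apart from H2O2, and the part of gene length was not tested. Markers also moved in this comparison. Of 6 neuroblast markers 3 were lower and 1 higher (PHOX2A, GATA3 and DBH lower, ISL1 higher). Of 8 tested markers of Schwann or mesenchymal cells 4 had a log2FC above 0. In this list 3 were called higher (VIM 2.66, COL3A1 2.48 and S100A6 0.62) and 1 lower (PDGFRB -0.70), so it did not move one way. Over all 6 libraries 2 of its 7 tested markers were called higher and 0 lower, with 3 above 0 and a median of -0.0904. COL3A1 had 22.2, 13.3 and 17.7 CPM in the controls and 111.3, 86.3 and 85.2 CPM in the treated libraries. VIM was also higher in every treated library than in all 3 controls. The higher levels of VIM and COL3A1 thus did not rest on leaving out control replicate 3.

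**Figure D5:**
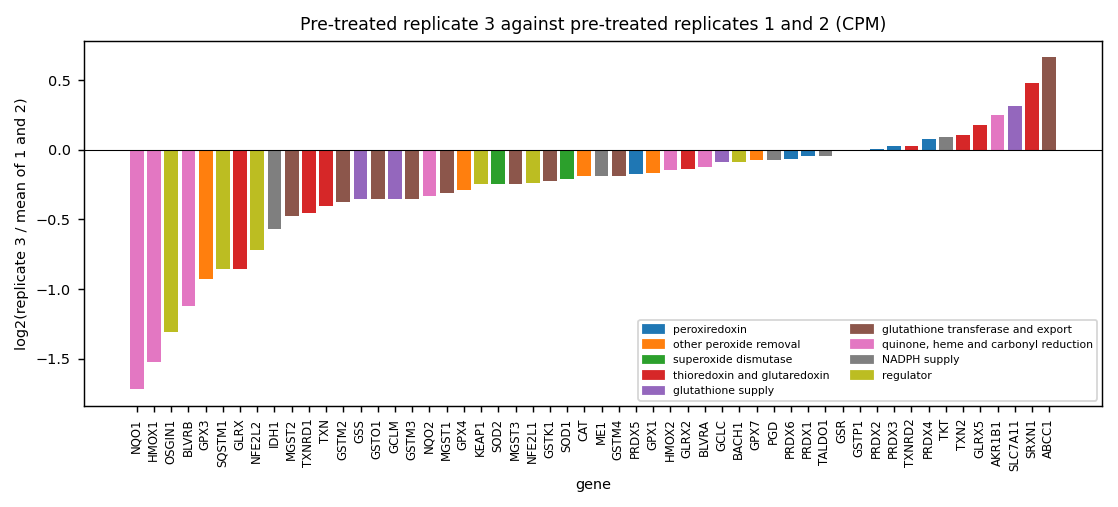
Log2 of the CPM in pre-treated replicate 3 over the mean of pre-treated replicates 1 and 2, for the 54 tested genes in order of the value and coloured by role. NQO1, HMOX1, OSGIN1 and BLVRB are the lowest, and the peroxiredoxins lie near 0.

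The pre-treated libraries also differed among themselves. Treated replicate 3 was the lowest of the 3 in 36 of the 54 genes (66.7%), beside 38.4% of all genes tested. Its log2 difference from the mean of treated replicates 1 and 2 was furthest below 0 for NQO1 (-1.72), HMOX1 (-1.52), OSGIN1 (-1.31) and BLVRB (-1.12), a biliverdin reductase. Next came GPX3 (-0.926), SQSTM1 (-0.856), GLRX (-0.853), NFE2L2 (-0.719), IDH1 (-0.571), MGST2 (-0.475) and TXNRD1 (-0.453). The genes that respond to NRF2 in other cells did not all do so. GCLM had -0.351, GCLC -0.0864, SRXN1 0.479 and ABCC1 0.663. The peroxiredoxins lay between -0.173 (PRDX5) and 0.0798 (PRDX4). SLC7A11 was higher there, with 3.43 CPM against 2.96 and 2.56 CPM. These are values of a single library and carry no test. Treated replicate 3 also had the most reads outside genes of the 3, 0.462 per counted read against 0.343 and 0.400, and the part of this in its values was not tested.

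The responses of both experiments were then set against each other by testing whether the treatment effect depended on the experiment. Over 12 libraries none of the 54 genes passed the threshold in edgeR's quasi-likelihood test, beside 7 of 24407 genes (0.0287%). DESeq2 and limma-voom also called 0 of the 54, beside 106 and 2 of all genes. At an unadjusted p under 0.05 there were 2, SLC7A11 and GPX3 (3.70%, beside 8.94% of all genes). SLC7A11 was higher after co-treatment and lower after pre-treatment, with a difference of -1.25 on the log2 scale (SE 0.39, adjusted p = 0.503 in edgeR's quasi-likelihood test). For GPX3 the difference was -1.08 (SE 0.39), and for ABCC1, the third smallest p, -1.08 (SE 0.51). Without pre-treatment control replicate 3, 3 of the 54 passed (5.56%, beside 8.02% of 25668 genes), which were PRDX5 (0.91), PGD (0.64) and ABCC1 (-1.42), and 14 had an unadjusted p under 0.05 (25.9%, beside 28.1%). These shares were near the background.

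Treated as 1 H2O2 effect shared by both experiments, the fit over 12 libraries again called none of the 54 in edgeR's quasi-likelihood test, beside 33 of all genes (0.135%). DESeq2 and limma-voom called 0 of the 54, beside 452 and 42 of all genes. At an unadjusted p under 0.05 there were 4 (7.41%, beside 12.1%). OSGIN1 had a log2FC of 1.40 (SE 0.43, adjusted p = 0.239), PRDX1 0.42 (SE 0.16, adjusted p = 0.306), ABCC1 -0.79 (SE 0.29, adjusted p = 0.304) and ME1 -0.20 (SE 0.09, adjusted p = 0.397). OSGIN1 was higher in the mean of the treated libraries in both experiments, by 1.75 and 1.08, with groups that overlapped after pre-treatment. Over 11 libraries PRDX1 passed, with a log2FC of 0.59 and an adjusted p of 0.0448, where 0.729% of all genes did.

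A further list of 74 genes of the pathway outside the 56, which held more aldo-keto reductases, ferritins, small MAF proteins and enzymes of glutathione and NADPH metabolism, was read in the same fits. Of its genes 72 were in the files. After co-treatment the median log2FC of its 67 tested genes was 0.00339, with 35 above 0. At an unadjusted p under 0.05 there were 10 (14.9%, beside 8.15% of all genes), 4 higher and 6 lower. After adjustment 1 of the 67 passed (1.49%, beside 0.598% of all genes), and it was higher. This was AKR1C3, an aldo-keto reductase and known NRF2 target, with 3.39, 4.93 and 4.04 CPM in the controls and 7.11, 10.3 and 8.46 CPM in the treated libraries. Its groups did not overlap, and the log2FC was 1.08 (SE 0.21, adjusted p = 0.0448 in edgeR's quasi-likelihood test). Its close paralog AKR1C1, with which it can share reads, had a log2FC of 0.56 (adjusted p = 0.410). After pre-treatment AKR1C3 had 2.87, 1.60 and 5.96 CPM in the controls and 9.78, 7.88 and 6.601 CPM in the treated libraries, again without overlap, and also when control replicate 3 is kept. AKR1C1 had 4.28, 3.27 and 5.87 CPM against 7.87, 7.57 and 7.24 CPM. On CPM scaled over the 12 libraries, all treated libraries lay above all controls for 6 of the 67 list genes after co-treatment (8.96%, beside 6.66% of all genes) and for 3 of 68 after pre-treatment (4.41%, beside 8.45%). The 3 were AKR1C1, AKR1C2 and AKR1C3, which did so in both experiments. That is 4.48% of the 67 list genes tested in both, beside 0.976% of all genes. The 3 are close paralogs and so not separate cases. AKR1C2 had a log2FC of 0.29 after co-treatment and 1.05 over the 6 pre-treatment libraries, and passed neither. Over all 6 pre-treatment libraries edgeR's quasi-likelihood test called 0 of the 68 list genes tested, 5 having an unadjusted p under 0.05 (7.35%, beside 11.2% of all genes). Without control replicate 3 it called 28 higher (41.2%, beside 13.2%) and 3 lower (4.41%, beside 12.8%), which were GPX2, EPHX1 and BACH2, the last a relative of BACH1. As an effect shared by both experiments, 0 of the 68 passed over 12 libraries, beside 0.135% of all genes. Over 11 libraries 2 passed (2.94%, beside 0.729%) in edgeR's quasi-likelihood test. These were AKR1C3 (1.41, adjusted p = 0.0154) and AKR1C1 (0.76, adjusted p = 0.0457), and both calls rest on leaving out pre-treatment control replicate 3.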

How the data were processed

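The authors sequenced total RNA depleted of ribosomal RNA, trimmed reads with Cutadapt 2.10, mapped them to hg19 with HISAT2 2.1.0 and counted them per gene symbol with htseq-count (HTSeq 0.7.2). The deposited values are raw counts without normalization. Strand setting and annotation version are not given in the sources used here, so for the 19 genes whose exons overlap a gene on the other strand reads of the partner may be included, and 13 genes have pseudogene symbols that can take reads. The authors' tables of their own comparisons hold fold changes and p-values and were not used. The tools were edgeR 4.0.16 (TMM factors, quasi-likelihood test, Benjamini-Hochberg adjustment over all genes tested, called under 0.05), limma 3.58.1 and DESeq2 1.42.0, run in R 4.3.3. Genes were kept when their CPM reached the value of 5 counts in the library of lowest depth, and did so in 3 or more libraries (2 for the 5-library fit). CPM in the text is scaled over all 12 libraries. Between 27576276 and 98287391 counts per library leave counting error small beside the spread between libraries, except for genes near 1 CPM. Positions come from an annotation lifted to hg19, and all 56 symbols matched it.

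The members, roles and lists were chosen with earlier results of these data known. Genes named with values in every library were those called over all libraries of an experiment, the 12 of smallest p in the 5-library fit, the 3 of smallest p where none was called, and NQO1, HMOX1, GCLM, GCLC, SRXN1, TXNRD1, SLC7A11, NFE2L2 and KEAP1. Other genes were named for their role or because a count was small, after their values were seen. Scripts were tested on simulated data. Alternatives were other tests, scalings, filters and call rules, a replicate block, 1 fit over both experiments, and each library left out. Same-numbered replicates correlated from -0.258 to 0.0808 in their deviations from the group means, so the numbers do not pair the libraries.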

Additional observations from a re-analysis of the deposited data

Results flagged for a closer look

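The cystine importer SLC7A11 was marked because all co-treated libraries lay above their controls (1.71 to 3.41 CPM against 1.05 to 1.45 CPM) while all pre-treated libraries lay below theirs (2.56 to 3.43 CPM against 3.49 to 4.23 CPM). The difference between both log2FC values was -1.255, with an adjusted p of 0.503 in edgeR's quasi-likelihood test over 12 libraries, which misses the threshold. The control levels also differed between experiments, and all pre-treatment controls lay above all co-treated libraries.

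The difference between the pre- and co-treatment log2FC passed the test over 11 libraries, without pre-treatment control replicate 3, for PRDX5 (0.909, adjusted p = 0.0183), PGD (0.638, adjusted p = 0.0431) and ABCC1 (-1.423, adjusted p = 0.0293), all in edgeR's quasi-likelihood test. Over 12 libraries the same differences were 0.31, 0.31 and -1.08 and did not pass, so the 3 calls rest on leaving that library out.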

How the results depend on the processing

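After co-treatment 0 of the 54 genes were called, and the number was 2 with edgeR's exact test and with no filter on low counts (NQO1 and OSGIN1 in both), and 1 (NQO1 each time) with DESeq2, limma-voom, upper-quartile factors, library size only, protein-coding genes only (chosen after seeing the data) and the replicate block. Of all genes the exact test called 333 and no filter 535, beside 132 in the main fit. The fits that called NQO1 alone called 342, 138, 128, 80, 142 and 181 of all genes, in the order given. With 1 library left out 0 to 1 of the 54 were called, where NQO1 was called without control replicate 1 and without control replicate 3. Over all 6 pre-treatment libraries DESeq2 and no filter each called 1, ABCC1, and leaving out 1 library gave 0 to 24, the 24 being those without control replicate 3. DESeq2 called 705 of all 24743 genes and no filter 319 of 41298. Without control replicate 3 the count of 24 became 15 with upper-quartile factors, 13 with library size only and 43 with the replicate block. It was 1 (ABCC1) with an absolute log2FC above 1 added. Of these members 13, 9, 41 and 0 were higher, in that order, beside 23 in the main fit. The share of all genes called higher in these fits was 8.3%, 5.25%, 22.3% and 2.98%, beside 13.2% in the main fit. In either direction 6274, 6276, 10755 and 2952 of all 26350 genes were called, beside 6871 in the main fit. Leaving out treated replicate 1, 2 or 3 as well gave 9, 13 or 35, with no share over all genes given here. These counts are therefore not read as a result about the members. With control replicate 1 or 2 left out as well, a single control remained. Upper-quartile factors moved the median of all genes to -0.104 and library size only to -0.208, and the median of the members was then 0.337 and 0.232. With library size only 9 were higher and 4 lower. PRDX5, ABCC1, PRDX1, PGD and GSTP1 were called in every one of these alternatives other than the added fold limit, while HMOX2 was called in 6 of 11 and in 1 of the 5 fits with a library left out. The interaction called 3 over 11 libraries and 0 to 3 with 1 library left out. The shared term called 1 with no filter (ABCC1) and 1 over 11 libraries, and 0 to 1 with 1 library left out, the 1 being PRDX1. The replicate block changed no other count.

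The sign of some small changes was not stable. After co-treatment the log2FC of GCLM ran from -0.0302 to 0.127 over the fits with a library left out. Over the 6 pre-treatment libraries the same fits ran from -0.134 to 0.653 for NQO1, from -0.0154 to 0.422 for TXNRD1, from -0.0476 to 0.297 for NFE2L2 and from -0.267 to 0.151 for KEAP1, and over the 5 libraries from -1.12 to 0.322 for SRXN1 and from -0.0963 to 0.305 for NFE2L2. Over the 5 libraries KEAP1 had -0.0691 with library size only, and NFE2L2 had -0.0377 with upper-quartile factors, -0.147 with library size only and -0.0577 with protein-coding genes only. Beside these reversals NFE2L2 passed the threshold with the replicate block (0.293), in which treated replicate 3 adds nothing to the contrast. It did not pass with that library left out (0.247). The cause of these changes was not tested. Depth limits the genes near or under 1 CPM, OSGIN1, SRXN1 and MGST1.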
